A study of Mus musculus with 6 samples.

Results

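Lin- bone marrow cells from mice lacking 1 copy of Diap1 were compared with those of wild type mice over all gene loci of the deposited tables. Of 23746 loci, 23451 had status OK in both libraries, and 10972 of these had a mean FPKM (fragment numbers divided by transcript length and sequencing depth) of at least 1 and are called measured here. The other 12479 loci with status OK lay below that level, 7011 of them at 0 in both. The measured genes were split into 801 that were abundant in the Gr1+Mac1+ cells of the heterozygous mice and 10171 others. Abundant means an FPKM of at least 5 there and at least 4-fold more than in the wild type Lin- library, on the log2(FPKM + 1) scale.

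Bone marrow came from C57BL/6 mice aged 12 weeks that were wild type (WT), Diap1 +/- (Het) or Diap1 -/- (KO), with marrow of 4 mice of a genotype pooled. Cells carrying both Gr1 and Mac1, surface antigens of granulocytes and monocytes, were first taken out with magnetic beads, and uncommitted progenitors were then enriched from what remained by negative selection. Both fractions of each genotype were sequenced, giving 6 libraries, 1 in each group. The pools of 4 mice cannot be split, and neither the deleted part of the gene nor the sex of the mice is given in the sources used here. With 1 library a side there was no test between genotypes: the values below are sizes, and the deposited 95% intervals do not cover the spread between mice.

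Diap1 encodes a formin that nucleates and lengthens actin filaments. Neutrophils are made in the marrow in steps that can be read from their granule proteins. Promyelocytes make the primary granule enzymes, myelocytes and metamyelocytes the secondary and tertiary granule proteins, and mature cells the receptors for chemoattractants. C/EBP transcription factors, C/EBPε among them, switch on secondary granule genes during this course. Cells negative for lineage antigens are normally depleted of all these stages but the earliest.

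The promoters of 4 of the genes that differed most are shown because these genes moved together and are known for control by C/EBP factors. Each run is the 250 bases before the annotated start, 5′ to 3′ on the gene's own strand, from the RefSeq table of build GRCm38.p6 (mm10). Capitals mark matches to TTGCNNAA, a core of C/EBP binding sites, searched on both strands. Ngp (neutrophilic granule protein) has 2 matches in chr9:110419558-110419807 on the plus strand, Lcn2 (lipocalin 2, which binds siderophores) 1 match in chr2:32387740-32387989 on the minus strand, S100a9 (a subunit of calprotectin) 1 match in chr3:90695722-90695971 on the minus strand, and Camp (the cathelicidin antimicrobial peptide) no match in chr9:109849457-109849706 on the minus strand.
Ngp: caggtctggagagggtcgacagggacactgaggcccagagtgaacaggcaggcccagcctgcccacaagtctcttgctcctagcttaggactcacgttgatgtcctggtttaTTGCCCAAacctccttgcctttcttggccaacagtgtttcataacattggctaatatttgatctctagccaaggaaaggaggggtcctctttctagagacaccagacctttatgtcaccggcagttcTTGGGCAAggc
Lcn2: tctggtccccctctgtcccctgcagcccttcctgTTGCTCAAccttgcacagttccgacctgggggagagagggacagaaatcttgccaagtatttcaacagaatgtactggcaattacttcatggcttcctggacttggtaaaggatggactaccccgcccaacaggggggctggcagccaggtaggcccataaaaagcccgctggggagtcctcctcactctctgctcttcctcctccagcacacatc
S100a9: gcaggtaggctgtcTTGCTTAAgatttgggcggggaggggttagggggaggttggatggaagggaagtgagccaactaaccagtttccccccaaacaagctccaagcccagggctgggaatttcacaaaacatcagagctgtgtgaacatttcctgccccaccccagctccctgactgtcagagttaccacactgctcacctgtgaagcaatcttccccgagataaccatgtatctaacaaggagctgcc
Camp: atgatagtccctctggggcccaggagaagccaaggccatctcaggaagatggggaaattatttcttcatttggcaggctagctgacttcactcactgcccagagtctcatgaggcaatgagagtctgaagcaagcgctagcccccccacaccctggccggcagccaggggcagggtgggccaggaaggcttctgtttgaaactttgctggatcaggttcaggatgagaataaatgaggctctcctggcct
All 12 genes with the largest ratio among the abundant genes had a promoter in that table, and 6 of them held the motif. It occurred in 2575 of all 27025 promoters of that length (9.53%). Of the 132 symbols of abundant genes past the size rule described below, 101 (76.5%) had a promoter, which is too few for a share over that set, so none is given. A match is a run of letters, not a shown binding site.

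The sort and the genotype were read first. Kit, the stem cell factor receptor of progenitors, had an FPKM of 72.6 in the WT Lin- library, 66.4 in the Het and 84.7 in the KO one, and between 14.9 and 15.7 in the 3 Gr1+Mac1+ libraries. Cd34 had 22.2, 18.6 and 24.98 in the same order in Lin- cells, and the Gr1+Mac1+ libraries 16.3 to 18.2, so it hardly separated the fractions. Itgam, which encodes the alpha chain of Mac1, had 0.640 in the WT Lin- library, 16.9 in the Het and 1.31 in the KO one, against 293 to 311 in Gr1+Mac1+ cells. The KO Lin- value had a wide interval, from 0 to 3.92. The Het Lin- library thus held a marker of the cells that the beads removed, at 5.44% of the level in its own Gr1+Mac1+ fraction. Erythroid genes were abundant in all 3 Lin- libraries, with Car1, a carbonic anhydrase of red cell precursors, at 1445, 1423 and 1522. Diap1 itself (mm10 chromosome 18, 37844825 to 37935411) had 36.0 (WT), 24.2 (Het) and 6.07 (KO) in Lin- cells, a log2 ratio of Het to WT of -0.55 with a counting SE of 0.05.

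A gene counted as higher or lower when Het and WT differed 2-fold or more as log2(FPKM + 1), the higher FPKM was at least 5, and the deposited intervals did not overlap. In all, 142 of 10972 measured genes were higher in Het (1.29%) and 7 were lower (0.0638%). Of these 7, the small RNA loci Mir680-2 and Snord49b passed only by rounding. Their WT lower bounds are listed as 2.84e-14 and 4.55e-13, in effect 0, against a listed 0 in Het. The abundant genes held 133 of the 142 higher genes, 16.6% of that class, and none of the lower ones. Among the other 10171 genes, 9 were higher (0.0885%) and 7 lower (0.0688%). In the Gr1+Mac1+ cells of the same pools, 15 of 11273 genes passed the same rule in either direction (0.133%). By this rule the genes higher in Het therefore lay almost wholly in the abundant class, whose WT Lin- levels are low by choice. Smaller differences outside the class are counted below by intervals alone. In bulk RNA, more cells of a type and more RNA per cell cannot be told apart, here and in all results below. The median log2 ratio of all measured genes was 0.00038, so the libraries were on the same scale.

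**Figure D1:**
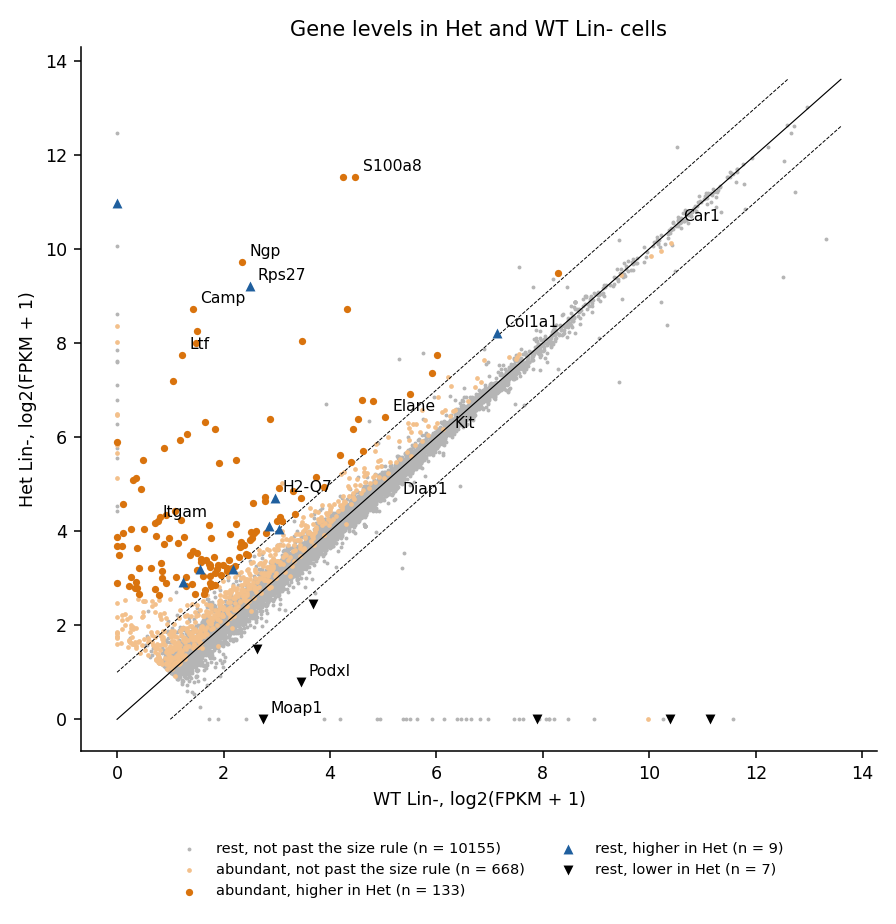
Each point is a measured gene, with its log2(FPKM + 1) in WT Lin- cells on the x axis and in Het Lin- cells on the y axis. The solid line marks equal levels and the dashed lines 2-fold. The 133 orange points, higher in Het and abundant in Het Gr1+Mac1+ cells, lie above the upper line, while 9 blue and 7 black points mark the other genes past the size rule. Points on an axis are loci listed at 0, mostly short ones with wide intervals.

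The leading genes came mostly from the list of secondary and tertiary granule genes. That list also holds S100a8 and S100a9, which are not granule proteins in the strict sense. WT Lin- cells gave an FPKM of 4.07 for Ngp, Het 845 and KO 5.56, while the Gr1+Mac1+ cells gave 14655 (WT), 13534 (Het) and 15593 (KO). Its log2 ratio of Het to WT was 7.38 (counting SE 0.16). Camp stood at 1.67, 420 and 2.65 in Lin- cells, with 7978, 7899 and 8987 in Gr1+Mac1+ cells, a ratio of 7.30 on that scale. S100a8 and S100a9, the 2 chains of calprotectin, are among the most abundant transcripts of neutrophils. S100a9 had 17.8 (WT), 2934 (Het) and 24.4 (KO) in Lin- cells, and S100a8 had 21.1, 2935 and 26.6. In each case the Het library was the only high one of the 3 Lin- libraries, and the 3 Gr1+Mac1+ libraries were close to each other. Ngp and S100a9, whose promoters above hold the motif, and Camp, whose printed window does not, thus shared 1 pattern over the 6 libraries.

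The list of secondary and tertiary granule genes had 38 members, of which 24 passed the size rule. The 29 that were measured all had a positive log2 ratio, with a median of 4.45. A gene can reach the measured level through its Het value alone, and over all 38 members the median was 3.51. The same holds for the lists below, where the median over all members was 0.87 for primary granule genes, 1.29 for receptor and surface genes, 0.66 for monocyte and macrophage genes, 0.36 for inflammatory mediators and 0.35 for immediate-early factors. Retnlg, a secreted protein of the resistin family, was at 1.82 in WT and 304 in Het (log2 ratio 6.76), Ltf, the iron-binding lactoferrin, at 1.33 and 215 (6.53), and Lcn2 at 1.81 and 256 (6.51). Chi3l3, a chitinase-like protein, was at 1.07 and 145 (6.14). Ifitm6, an interferon-induced transmembrane protein, had a listed 0 in the WT library and 58.3 in the Het library. Cd177, a surface glycoprotein of neutrophils, was at 0.234 and 33.1 (4.79), and Mmp9, a gelatinase of tertiary granules, at 0.275 and 33.7 (4.77). Summed over the list, Lin- cells had an FPKM of 98.5 (WT), 8624 (Het) and 119 (KO), and Het Gr1+Mac1+ cells 145424. S100a8 and S100a9 made up most of both Het sums, with 2935 and 2934 in Lin- and 46030 and 53959 in Gr1+Mac1+ cells. S100a8 and S100a9 alone held 43.9% of the summed excess of Het over WT in the abundant class.

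Primary granule genes behaved unevenly, and here the WT progenitors had levels of their own. Of 15 measured, 8 were higher, with a median log2 ratio of 1.03. Lyz2, the lysozyme of myeloid cells, was at 19.0 in WT, 420 in Het and 36.5 in KO (log2 ratio 4.40), and Hp, haptoglobin, at 2.77, 42.7 and 5.80 (3.54). Elane, neutrophil elastase, was at 31.7, 84.8 and 31.1 (1.39). Mpo, myeloperoxidase, was at 187, 216 and 211, and Ctsg, cathepsin G, at 47.7, 55.6 and 46.1, neither past the rule. Mpo and Ctsg thus stood close to WT, while Lyz2 and Hp differed as widely as some of the later granule proteins.

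Receptors and enzymes of mature neutrophils followed. Among 36 measured receptor and surface genes 14 were higher (median 1.503), led by Fpr2, a formyl peptide receptor, at 0.0673 (WT), 11.8 (Het) and 0.222 (KO), and Itgam. All 8 NADPH oxidase subunits were measured and 4 were higher. Cybb, the catalytic chain of the oxidase, was at 0.743, 18.8 and 1.19 (log2 ratio 3.503), and its cytosolic partner Ncf1 at 5.85, 24.0 and 8.09 (1.87). Rac1, which most cells express, was at 82.5 in WT and 85.4 in Het. Of 17 granulocyte and monocyte transcription factors 1 passed: Cebpe, which encodes C/EBPε, was at 0.284, 6.50 and 0.702 (2.55). The median of the 14 abundant factors was 0.53.

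Genes of other mature myeloid cells were higher too. In eosinophil, basophil and mast cell genes 9 of 16 measured ones passed (median 2.26). Over all 25 genes of that list found in the tables the median was 0.42. Prg2, the eosinophil major basic protein, had 10.1 (WT), 262 (Het) and 15.1 (KO) in Lin- cells, and Epx, eosinophil peroxidase, at 0.709, 17.6 and 1.23. The eosinophil ribonucleases Ear1, Ear2, Ear6 and Ear10 also passed, but are close copies that can share fragments. By contrast Prss34 and Mcpt8, proteases of basophils, were at 18.1 and 25.8 and at 13.2 and 18.6 in WT and Het, short of the rule. Monocyte and macrophage genes were higher in 9 of 24 cases (median 0.75), with Ccl6, a chemokine, at 1.13 and 20.6 and Fn1, fibronectin, at 1.59 and 10.3. Among inflammatory mediators 5 of 18 were higher, such as Il1b at 0.327 and 8.24. None of 21 immediate-early transcription factors passed, although 19 had a positive ratio (median 0.46). Fos had the highest level of these, 164 in WT and 207 in Het.

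**Figure D2:**
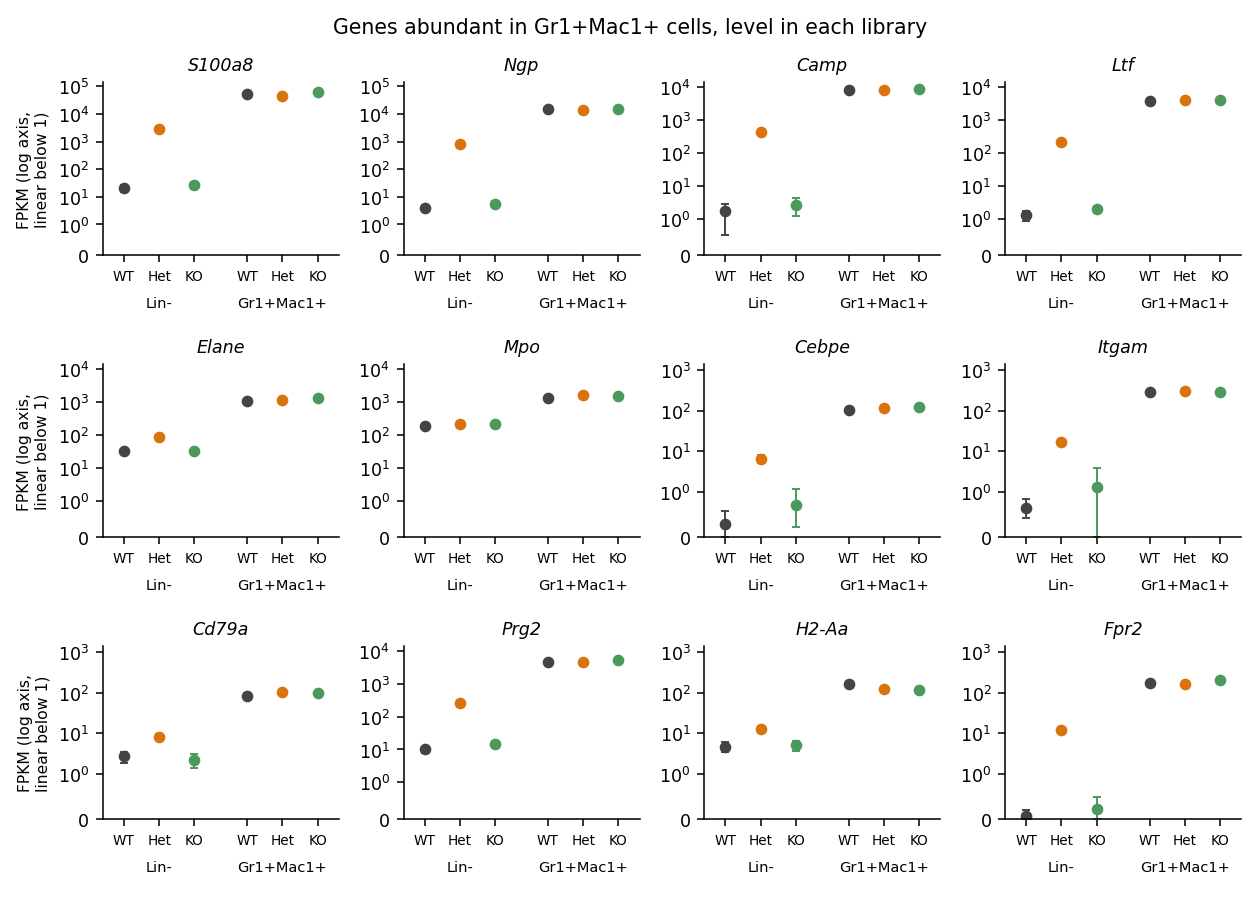
FPKM of 12 genes in the 6 libraries (y axis, logarithmic above 1 and linear below), with deposited 95% intervals as bars. In the Lin- fraction the Het library (orange) stands above WT (grey) and KO (green) for every gene drawn, by least for Mpo, and the 3 Gr1+Mac1+ libraries lie close together.

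Over the whole abundant class, 780 of 801 genes had a positive log2 ratio of Het to WT Lin-, with a median of 0.52. The KO Lin- library stood at a median of 0.13 above the same WT library. In Gr1+Mac1+ cells the median of Het to WT was 0.05. The class held 2.04% of the summed FPKM in WT Lin-, 4.34% in Het Lin- and 3.33% in KO Lin- cells, and 43.5% to 44.7% in the Gr1+Mac1+ libraries. Globin was part of the KO share. The 8 measured globin loci, 6 of them in the class, summed to 4656 (WT), 4185 (Het) and 10116 (KO) in Lin- cells. The list of secondary and tertiary granule genes, S100a8 and S100a9 included, summed to 98.5, 8624 and 119. The WT Lin- library served both to choose the class and as the base of the ratio. Choosing it instead from the KO libraries, which are no part of the comparison, gave 774 genes, 743 of them positive, a median of 0.52 and 131 higher. For the 10171 other genes the median was -0.013, with 4718 positive and 5453 negative. Genes at least 4-fold lower in Het Gr1+Mac1+ than in WT Lin- cells were slightly lower in Het Lin- cells. Of these 590 genes 467 were negative, with a median of -0.12. Their WT Lin- level both chose them and was the base of the ratio, and the KO Lin- library had the same median, -0.12. Chosen from the KO libraries instead, 387 of 547 were negative in Het, with a median of -0.08.

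The size of the difference was next set against the myeloid level of each gene. The excess share of a gene is 100 times its excess of Het over WT Lin-, divided by its difference between Het Gr1+Mac1+ and WT Lin-. Its median over the 801 genes was 5.33%, with quartiles of 4.02% and 6.59%. A counting interval of the share that held the median was found for 647 of the 801. The same was found for 8438 of the 10171 other genes, so this count does not set the class apart. Among the 376 genes with an FPKM of at least 50 in Het Gr1+Mac1+ cells, the quartiles were 4.54% and 6.25%. A share between 4% and 7% was found for 432 of the 801, and for 110 of the 133 higher genes, from S100a9 at 5.41% and Camp at 5.30% to S100a8 at 6.33% and Retnlg at 6.79%. These differ among themselves by more than counting error, since the interval of S100a9 runs from 5.30% to 5.51% and that of S100a8 from 6.18% to 6.49%. The genes of this class spanned a wide range of FPKM in Gr1+Mac1+ cells, so a share of similar size means excesses of very different size.

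The median share was then taken for each list, with no test of the differences between lists. It was 5.05% for 13 primary granule genes, 5.59% for 29 secondary and tertiary granule genes, 5.63% for 34 receptor and surface genes and 5.37% for 7 NADPH oxidase subunits. It was 5.79% for 23 monocyte genes, 5.99% for 13 eosinophil, basophil and mast cell genes, 5.505% for 15 immediate-early genes and 5.35% for 16 inflammatory mediators. Mpo, at 2.11%, and Ctsg, at 1.82%, were below the rest of their list. For 12 B lineage genes the median was 2.78%, with a range of 0.55% to 5.47%. The B cell receptor chains Cd79a and Cd79b were at the top of that range, with 5.33% and 5.40%, and Cd79a passed the size rule (2.68 in WT, 8.10 in Het, 2.23 in KO). In the 6 globin loci the median was -1.67%, with a range from -5.33% to the 42.1% and 35.7% of 2 Hba-a2 loci. Beta-s, an adult beta globin gene with near-identical copies, gave 1041 (WT), 914 (Het) and 2377 (KO) as FPKM in Lin- cells and a share of -3.02%, and Alas2, the first enzyme of erythroid heme synthesis, one of -2.60%. Tpm4, a tropomyosin that binds actin filaments (11.4 in WT, 21.4 in Het), was high at 16.5%, and so was Slc4a1, the anion exchanger of red cells, at 12.4%. Rnu11, a small nuclear RNA, had 20.8%, but with an interval from 0 to 144 around its Het FPKM of 59.7. Whether these transcripts came from cells carried over from the other fraction was not tested.

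**Figure D3:**
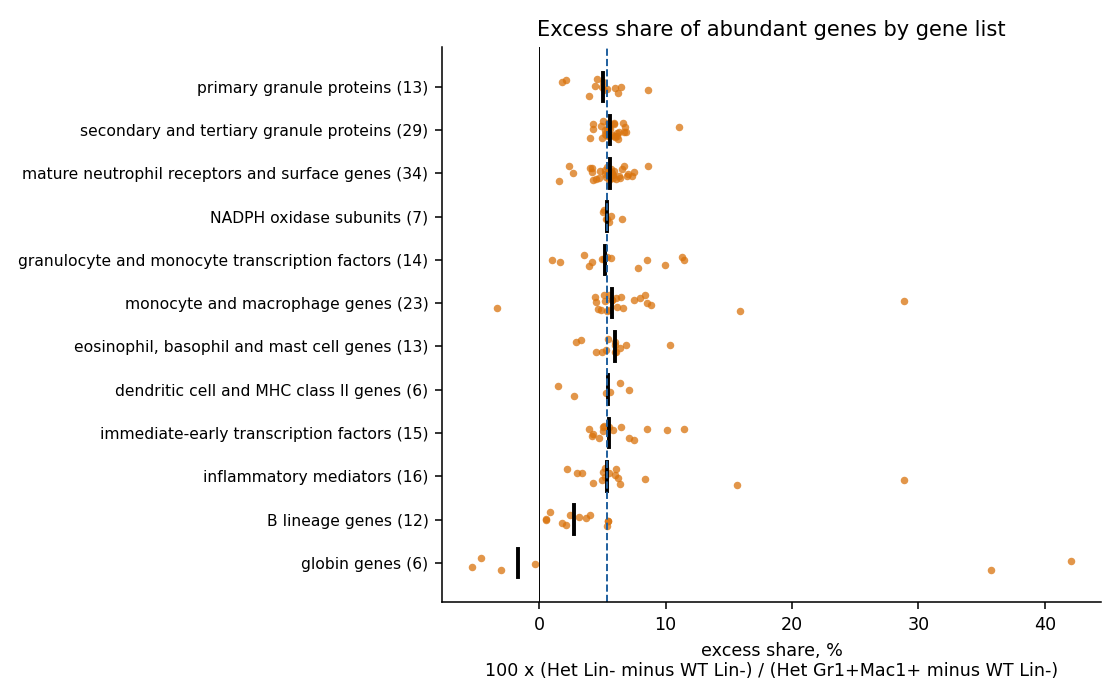
Excess share in percent (x axis) of the abundant genes of 12 lists, with the number of genes beside each name. Points are genes, black bars the median of a list and the dashed line the median of all 801 abundant genes, 5.33%. Most myeloid lists centre near the line, while B lineage genes centre at 2.78% and globin genes at -1.67%.

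The KO Lin- library gave another reading of the same 133 genes, which were chosen by their Het and WT values, so that their Het ratio is a description. Their median log2 ratio to WT was 1.91 in Het and 0.29 in KO Lin- cells, both measured against the same WT library, and 0.00317 for Het against WT in Gr1+Mac1+ cells. In 5 of them KO was also at least 2-fold above WT. In the Gr1+Mac1+ fraction 131 of the 133 were within 1.5-fold between Het and WT. Over the whole abundant class, which was chosen by the Het Gr1+Mac1+ and WT Lin- values, the corresponding medians were the 0.52 (Het) and 0.13 (KO) given above.

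Outside the abundant class, 16 genes passed the size rule, and 10 of them overlapped another locus of the tables, a check added after the values were seen. In 4 pairs of loci the partner differed in the opposite direction, and the sum of the pair lay near WT. Rps27, a ribosomal protein gene, had 4.63 (WT), 593 (Het) and 352 (KO) in Lin- cells, while Gm9846, which starts at the same base, was at 3116, 2714 and 2938. Their sum was 3120, 3307 and 3290. H2-Q7, a class I histocompatibility gene, was at 6.77, 25.1 and 27.1 and its overlapping neighbour H2-Q9 at 39.1, 21.3 and 28.4, with a sum of 45.9, 46.4 and 55.5. Moap1, which encodes a partner of the cell death protein BAX, was at 5.68 (WT), 0.000152 (Het) and 0.953 (KO), and Gm20604, which begins at the same base, at 3.53, 8.17 and 7.67. The sum of the pair was 9.21, 8.17 and 8.63. Gm9781 was at 1.94, 8.09 and 4.05 and Eif3j, a translation factor gene it overlaps, at 48.2, 41.4 and 45.8. The log2 ratios of Het to WT of these 4 sums were 0.08, 0.02, -0.15 and -0.02, and which locus of a pair the fragments came from was not tested. The remaining 5 that overlap were Snhg10, the host gene of a small RNA, at 1.36, 6.58 and 4.96, and 4 loci of small RNAs with few fragments.

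The 6 genes past the rule without an overlap were Col1a1, Hspb1, Serpinf1, Podxl, Acyp2 and 1700097N02Rik. Col1a1, the main chain of type I collagen, had 139 (WT), 296 (Het) and 180 (KO) in Lin- cells, with 4.42, 9.87 and 7.25 in the Gr1+Mac1+ libraries. Its log2 ratio of Het to WT was 1.08 (counting SE 0.02) in Lin- cells. Hspb1, a small heat shock protein, was at 6.20, 16.2 and 10.6 in Lin- and 1.95, 5.57 and 4.03 in Gr1+Mac1+ cells. Serpinf1, a secreted serpin made by bone cells among others, was at 7.23, 15.5 and 10.2 in Lin- cells, a ratio of 1.01. Podxl, a sialomucin of progenitors and vessels, had 9.96 in the WT library, 0.731 in the Het and 0.629 in the KO one, and 0.266 or less in Gr1+Mac1+ cells. Its log2 ratio was -2.66 (counting SE 0.10), so WT was the library that stood apart. Acyp2, an acylphosphatase, was at 5.19, 1.80 and 4.66, and the uncharacterised 1700097N02Rik, named here after its values were seen, at 11.9, 4.47 and 6.48. With a pseudocount of 5, Hspb1, Serpinf1, Acyp2 and 1700097N02Rik lost the call, and Col1a1 and Podxl kept it.

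Members of several lists outside the abundant class differed by less than the size rule asks. For these the deposited intervals alone were used, which are narrower, as a ratio, for genes of higher level: 433 of the 10171 other genes (4.26%) were higher in Het with intervals apart, and 676 (6.65%) lower. Of 26 megakaryocyte and platelet genes outside the abundant class, 25 had a positive log2 ratio (median 0.45) and 18 were higher with intervals apart, none lower. Pf4, platelet factor 4, was at 232 (WT), 308 (Het) and 147 (KO), and Ppbp, another platelet chemokine, at 29.0, 57.8 and 21.9. Itga2b, the alpha chain of the fibrinogen receptor, was at 43.1, 51.5 and 30.4, and Treml1, a receptor of platelet granules, at 10.49, 15.05 and 5.87. In 23 of the 26 (88.5%) the order was Het above WT above KO, which held for 13.9% of all genes outside the abundant class. The median of KO to the same WT library was -0.32. The summed FPKM of the 26 was 525, 721 and 370 in WT, Het and KO Lin- cells and 347 to 353 in Gr1+Mac1+ cells, where the 3 genotypes hardly differed.

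The other list held genes of osteoblasts, stroma and endothelium. Of 24 outside the abundant class, 18 were positive (median 0.61, against 0.25 over all 41 genes of the list, measured or not), 13 higher with intervals apart and 1 lower. Its most abundant members were genes of bone matrix, with Col1a2 at 118 in WT, 234 in Het and 147 in KO, Sparc, osteonectin, at 60.7, 114 and 69.3, and Bglap, osteocalcin, at 75.02, 116 and 75.9. Other members, picked after their values were seen, lay nearer to WT: Lepr was at 3.74, 3.14 and 3.002, Cxcl12 at 2.69, 2.85 and 4.25, and Eng at 53.6, 50.7 and 54.9. The sum of the 24 genes was 592, 1011 and 693 in Lin- cells and 112 to 141 in Gr1+Mac1+ cells. Ppbp and Col1a2, at log2 ratios of 0.97 each, lay just under the size rule.

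**Figure D4:**
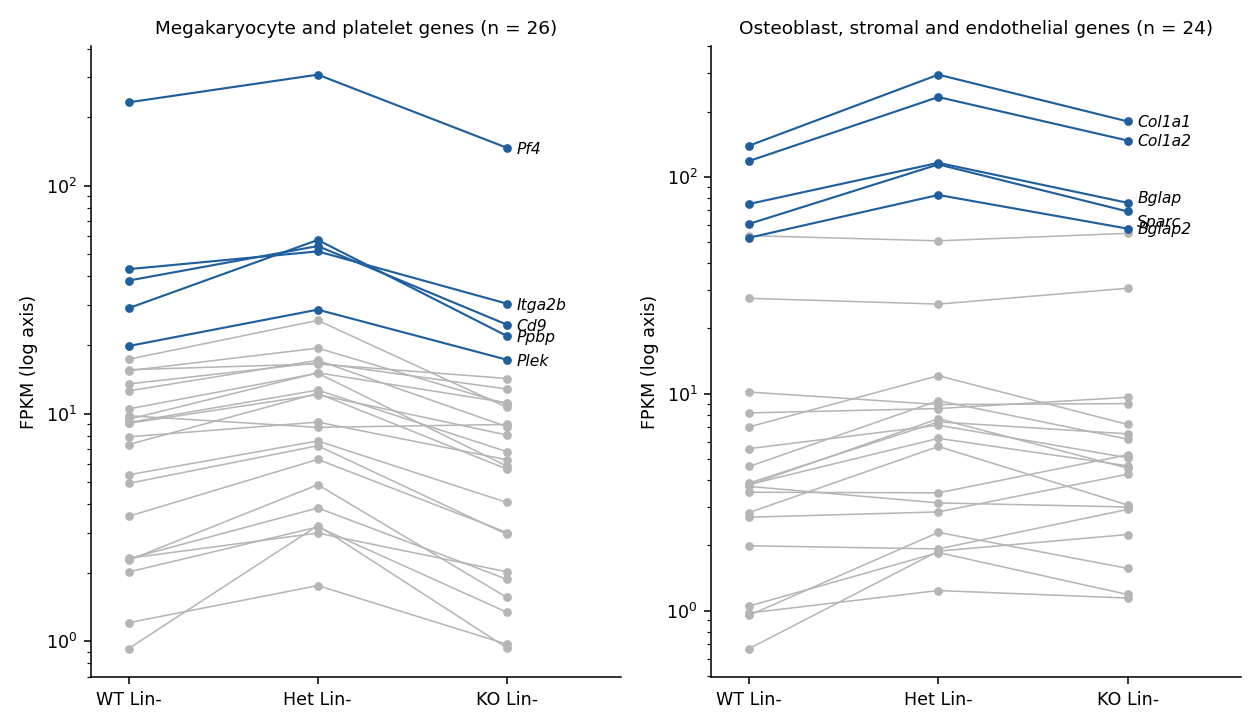
FPKM on a logarithmic axis in the WT, Het and KO Lin- libraries for the 26 megakaryocyte and platelet genes (left) and the 24 osteoblast, stromal and endothelial genes (right) outside the abundant class. Lines join the values of a gene, and the 5 most abundant of each list are blue and named. The Het library is highest in nearly all lines on the left and in most on the right.

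The direction of lymphoid genes went largely with their class. Of 17 measured B lineage genes 14 were positive (median 0.17), all 12 in the abundant class and 2 of the 5 outside it (median -0.11). The size rule was passed by 2, Cd79a and Ly6d, a surface antigen of early B cells, the latter at 2.11 in WT and 5.34 in Het. Among 4 abundant T and NK cell genes 3 were positive (median 0.10). Of 19 T and NK cell genes outside the abundant class 17 had a negative ratio (median -0.29), with 4 lower by intervals apart and none past the size rule. Cd3e, a chain of the T cell receptor complex, was at 3.10 (WT), 1.49 (Het) and 1.44 (KO), and Thy1 at 7.29, 4.84 and 4.58, so WT was the highest library for both. These are low levels, and the intervals overlapped for most members. In dendritic cell and MHC class II genes 2 of 13 passed: H2-Aa was at 4.67, 12.99 and 5.13 and H2-Eb1 at 2.41, 6.36 and 1.60, both abundant in Gr1+Mac1+ cells.

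Genes of the progenitor lists differed little in size. Of 12 measured progenitor surface genes 6 were positive and 6 negative, with none past the rule and a median of 0.04, and of 15 stem and progenitor transcription factors 12 were positive with a median of 0.07. With intervals apart, 1 of the 11 surface genes outside the abundant class was higher and 2 lower, Kit among the lower. Of the 14 factors outside it, 1 was higher and none lower. Lmo2 was at 186 in both WT and Het, Myb at 117 and 114 and Gfi1b at 113 and 104. None of 38 erythroid genes passed (median 0.05), and Car2 was at 1336 in WT and 1282 in Het. With intervals apart, 9 of the 37 outside the abundant class were higher and 3 lower, against 4.26% and 6.65% of all such genes. None of 20 heme and iron genes passed, with Fth1, ferritin heavy chain, at 1539 and 1565, but 7 of the 19 outside the abundant class were higher with intervals apart and 1 lower. In the 8 globin loci, 2 loci that carry the symbol Hba-a2 passed, at 59.7 and 163 and at 44.3 and 119 in WT and Het. The 4 alpha globin loci share fragments, and their sum over Lin- cells came to 2641 (WT), 2382 (Het) and 5556 (KO). Medians for ribosomal proteins (0.01), DNA replication (0.04), mitosis (0.06) and oxidative phosphorylation (-0.02) were near 0, with 1 call among them, that of Rps27. Replication-dependent histone genes had a median of -0.10 and p53 targets one of 0.02, with no call. Of the 29 interferon response genes 1 passed, Ifi27l2a, at 5.11 in WT and 15.05 in Het. The BCL2 family list held 1 call of 17 (Moap1), the sialomucins 1 of 8 (Podxl) and the heat shock genes 1 of 17 (Hspb1). Macrophage genes of erythroblastic islands were mostly under the measured level, with none of 5 past the rule, such as Hmox1, heme oxygenase, at 0.643 in WT and 3.84 in Het.

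Actin genes, the field in which Diap1 acts, differed mostly by less than the size rule asks. Of 9 measured formins none passed, Diap1 included, and 8 were positive. Daam1 was at 20.2 in WT and 22.0 in Het, and Fmnl1, an abundant formin of leukocytes, at 15.3 and 21.8. Of 23 targets of SRF and MRTF, the factors that respond to actin state, 2 passed. These were Thbs1, thrombospondin (2.73 to 8.64), and Actn1, alpha-actinin (4.37 to 10.4), both abundant in Gr1+Mac1+ cells. The 15 targets outside that class had a median of 0.08 in Het and -0.12 in KO, both against the same WT library, with Actb at 1095 in WT, 1135 in Het and 988 in KO. By intervals apart, 8 of these 15 were higher in Het and 2 lower, against 4.26% and 6.65% of all genes outside the abundant class. The list includes genes of high level, such as Actb, where intervals are narrower as a ratio. The order Het above WT above KO held for 10 (66.7%), against 13.9%. The 15 summed to an FPKM of 4502 in WT Lin-, 4651 in Het Lin- and 9873 in Het Gr1+Mac1+ cells. Taking off the median excess share brought the median of all 23 targets from 0.11 to 0.03. Outside the abundant class the differences of these targets were mostly small, such as that of Myl6, a myosin light chain, from 429 in WT to 488 in Het (log2 ratio 0.19). Inside it they were larger, with Thbs1 and Actn1 past the rule and Tpm4 at a log2 ratio of 0.85.

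**Figure D5:**
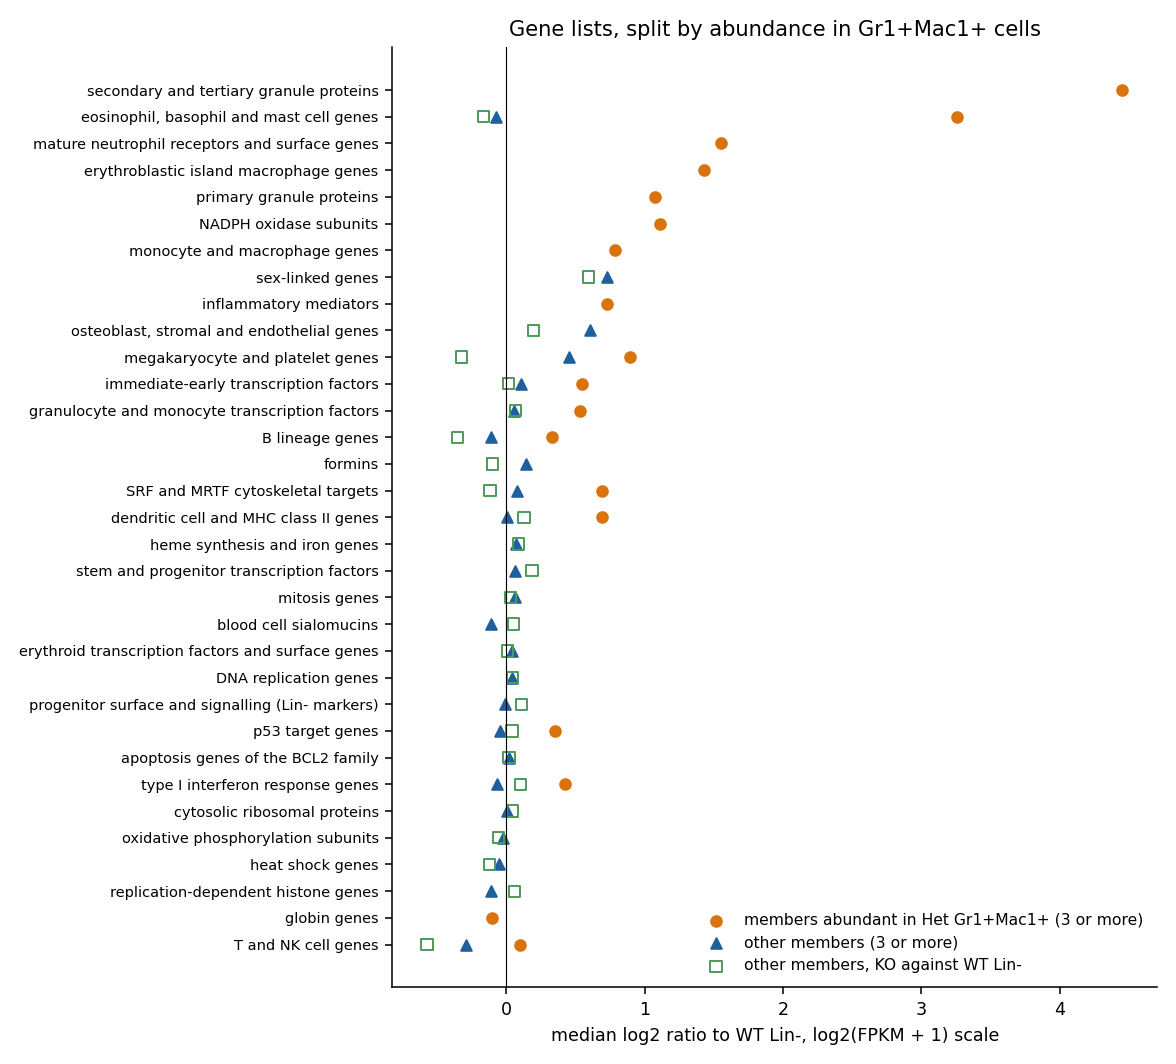
Median log2 ratio to WT Lin- (x axis, log2(FPKM + 1) scale) of the reported gene lists with 5 or more measured members, split into members abundant in Het Gr1+Mac1+ cells (orange circles, Het) and other members (blue triangles, Het; green squares, KO). Orange circles reach 4.45, while the blue triangles lie between -0.29 and 0.73.

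The pools also differed in sex-linked genes. Xist, the RNA of the inactive X chromosome, had 54.2 (WT), 34.9 (Het) and 38.7 (KO) in Lin- cells. The Y-linked Eif2s3y was at 9.05, 17.6 and 18.0 and Ddx3y at 3.25, 6.76 and 5.42. All 5 sex-linked genes had intervals apart between Het and WT Lin- cells. Whether the pools differed in the sex of the mice, and its part in the differences above, was not tested.

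Among the genes higher in Het, the division into abundant and other genes left few borderline cases, and the other measured genes were not examined for this. Just inside it, Ccl4 was 2.17 and the higher Hba-a2 locus 2.33 above WT Lin- in Het Gr1+Mac1+ cells on the log2 scale, where 2 is the limit. Just outside, Rps27 was 0.76 and Snhg10 0.25 above. The median share of the Het Gr1+Mac1+ level was then taken off each Het Lin- value, and the remainder was divided by the part of the library left. This left 27 higher genes, 16 in the abundant class and 9 of the 9 others, with Ppbp and Col1a2 now past the rule. The division alone put these 2 past it, since it raised Ppbp from 57.8 to 60.8 and Col1a2 from 234 to 246 in Het. All 7 lower genes remained lower.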

How the data were processed

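RNA was sequenced from the Lin- and the Gr1+Mac1+ fraction of WT, Het and KO marrow pools, 6 libraries in all, and the Het and WT Lin- libraries are compared here. The values the authors deposited are FPKM per gene locus, each with 95% bounds and a status, per the file headers. Per the submitters' processing notes TopHat2 2.0.7, Cufflinks 2.0.2 and mm10 were used, and neither which step used what nor the gene annotation is given in the sources used here. FPKM is relative to the library total, so that a high level of a few genes reduces the FPKM of the rest. Loci that overlap or are near-identical can exchange fragments. The files hold no counts; the interval widths imply about 8633860 to 11603200 fragments a library, and 10795 to 11315 genes had an FPKM of at least 1.

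Ratios were taken on the log2(FPKM + 1) scale, with a pseudocount of 1, which understates the change of low genes. The size rule asked for status OK in both libraries, a mean FPKM of at least 1, 2-fold, the higher FPKM at 5 or more and deposited 95% intervals apart. Counting SEs come from those intervals, which at some loci are wider than the level alone would give, such as Itgam in KO Lin- cells. No p-value was computed, since a group is 1 library. The calls and the excess share were tested on simulated data. The tools were matplotlib 3.10.9, pandas 2.3.3 and numpy 2.4.6 under Python 3.11.15.

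Of 912 symbols in 34 gene lists, 908 matched, 14 of them by an older symbol; Ly6g was among the 4 without a match. For 1 list no value is given here. The comparison, the gene lists and the rules were chosen with earlier results of these data known. Named genes are Diap1; Kit, Cd34 and Itgam; the 12 abundant genes with the largest ratio past the rule; all other genes past it; up to 6 passing and the 4 most abundant members of a list; and the 3 highest and 3 lowest excess shares at an FPKM of at least 50 in Het Gr1+Mac1+ cells. Loci with no symbol, a repeated one or one for rRNA, Snor, Mir, Rik or Gm were counted but passed over, except where the text says so. Cd3e, Cxcl12, Eng, Lepr, Mmp9, Myl6, Treml1 and the partners of overlapping loci were named after their values were seen.

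Alternatives were pseudocounts of 0.1 and 5, levels of 1 and 10, no filter, 3-fold, no interval criterion, rescaling by the median ratio, other definitions of abundance and taking off the median excess share. In the last, the remainder was divided by the part of the library left, which raises genes that are low in Het Gr1+Mac1+ cells. Sums of overlapping loci were added after the data were seen.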

Additional observations from a re-analysis of the deposited data

Results flagged for a closer look

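The Het to WT difference passed the size rule in opposite directions in the Lin- and the Gr1+Mac1+ fraction for H2-Q7 and for 2 loci with the symbol Hba-a2. With 1 library a group, the difference between the fractions was not tested. The log2 ratio of H2-Q7 was 1.75 in Lin- cells and -1.21 in Gr1+Mac1+ cells. Summed with H2-Q9, which it overlaps, the ratio came to 0.02 (Lin-) and 0.03 (Gr1+Mac1+). The first Hba-a2 locus had 1.43 in the Lin- and -1.50 in the Gr1+Mac1+ fraction, and the second at 1.41 and -1.45. Summed over the 4 loci of Hba-a1 and Hba-a2, which share fragments, the ratio came to -0.15 (Lin-) and -0.31 (Gr1+Mac1+).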

How the results depend on the processing

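With 142 genes higher and 7 lower as the base, a pseudocount of 5 left 86 higher genes, 82 abundant and 4 others, and asking for 3-fold left 86, of which 81 were abundant and 5 others. Requiring the higher FPKM to reach 10 left 92 higher genes, 86 of them abundant, and 4 lower ones, all 4 outside the abundant class. These 4 were 1700097N02Rik and the small RNA loci Mir680-2, Snord83b and Snord49b. A level of 1 gave 14 higher genes outside that class. Without the interval criterion there were 46 lower genes, 45 of them outside the abundant class, and 33 higher ones outside it. Taking off the median excess share left 27 higher genes, 16 of them abundant, by construction, and turned Camp to -1.42 and Cd177 to -0.30 on the log2 scale. It moved the medians of 16 of the 34 lists, and each other pseudocount moved those of 3. As a plain ratio of Het Lin- to Het Gr1+Mac1+ levels the median share was 13.5%, since WT levels are not taken off; in the other settings run it lay between 4.60% and 5.38%. A pseudocount of 0.1 and the other definitions of abundance left each count within 1.5 times its base. Dropping the filter on low values could not change a call, since the rule already asks for an FPKM of 5 in the higher library. Rescaling was by a factor of 1.00029 and changed no count, so neither of these settings is a check of the calls. Summed with the locus they overlap, Rps27, H2-Q7 and Moap1 no longer passed; those sums were chosen after seeing the data. No paired analysis was possible because each group is 1 library. Depth limits genes of low FPKM, and the deposited intervals do not cover the spread between mice, so no difference here has a replicate check.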
